A study of Rattus norvegicus with 20 samples.

Results

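When 2 injuries strike the same kidney, their effects on a transcript can add up, cancel or share a ceiling. This was examined here in whole rat kidney with all 20 of the 20 libraries of the series, which carry the disease labels Sham (6 libraries), RM (6), HS (5) and RM-HS (3). In trauma research RM usually stands for rhabdomyolysis and HS for haemorrhagic shock, and the series title speaks of trauma-induced acute kidney injury; the sample labels do not spell the letters out. The sources used here do not give strain, age, sex, the procedures or the time of sampling; the tissue was a frozen whole kidney in every group, and no source states that each library is a separate animal, so p-values measure the spread between these libraries. The design text counts 19 libraries with 5 RM, whereas 6 carry the RM label and were used.

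The quantity under study was the departure from additivity, the RM-HS and Sham means together less the RM and HS means, on the scale of log2(normalized count + 1). It is 0 when both injuries multiply a transcript's level independently, and it equals the HS change in kidneys that also had RM minus the HS change in kidneys without RM. The 15954 genes that reached a normalized count of 10 in 3 or more libraries were fitted together by limma, and a departure was called at a Benjamini-Hochberg adjusted p under 0.05 over all of them. The repeat with Sham 1 and Sham 6 as the only controls used the same genes.

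In rhabdomyolysis, myoglobin released from muscle reaches the tubule, where its haem is an oxidant load that the cell meets with haem oxygenase, iron storage and the NRF2 antioxidant programme. Haemorrhagic shock starves the tubule of oxygen and then reperfuses it. Both insults are known to fall hardest on the proximal tubule and the thick ascending limb, and both switch on immediate early transcription factors, chaperones and injury markers such as kidney injury molecule 1.

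Depth was 45047179 to 109940948 reads, of which 42.2% to 54.7% came from mitochondrial genes, and no 2 libraries were identical. All 11 thick ascending limb, all 11 early proximal tubule and all 10 podocyte markers on the lists were detected. 2 features of the library set bear on every departure. The first is a split among controls: the summed early proximal tubule markers reached 394452 and 381161 in Sham 1 and Sham 6 but 102109 to 184864 in Sham 2 to Sham 5, against 328257 to 611122 in the 14 injured libraries. In bulk tissue, fewer cells of a type and less RNA per cell cannot be told apart. The second is the first letter of the library names, R or S, whose meaning the labels do not give: all Sham and RM-HS libraries are R, 5 of 6 RM libraries are S (RM 1 is R), and 2 of 5 HS libraries are S (HS 4 and HS 5). A letter effect would therefore enter the contrast.

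In the fit of all libraries without a covariate, the 2 injuries together did less than their sum in most genes that departed from additivity. With the letter as a covariate 617 genes (3.87%) departed. Without it, 5054 of 15954 genes (31.7%) departed, 2376 (14.9%) with RM-HS above the additive value and 2678 (16.8%) below it. Each injury alone changed many genes: RM raised 4178 (26.2%) and lowered 4277 (26.8%) against Sham, HS raised 3712 (23.3%) and lowered 3698 (23.2%), and RM-HS changed 6749 (42.3%). RM-HS differed from HS in 3287 genes (20.6%), but from RM in only 173 genes (1.08%), of which 63 were higher (0.395%) and 110 lower (0.689%). The last count depended on single libraries. It was 480 without RM 1, but 89, 46, 94, 31 and 52 without RM 2, 3, 4, 5 and 6, 107 without HS 2, 21 without RM-HS 1 and 24 without RM-HS 3. It was 505 by DESeq2, 129 by edgeR and 333 with array weights. With the letter as a covariate limma called 0, with 1183 genes at an unadjusted p under 0.05 against 2525 without it.

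Departures were sorted by what each injury did alone. Saturation, in which RM and HS both moved a gene the same way and RM-HS fell short of their sum, held 3745 genes: 2028 that both injuries raised and 1717 that both lowered. Loss, in which 1 injury alone moved the gene and the departure went against that move, held 1034. Opposing, in which RM and HS moved a gene in different directions, held 33. Synergy held 240: the departure took the direction of the RM-HS change, and no single change that passed went against it. A single change that missed the threshold could go either way. The 2 remaining genes fell in no class. The Sham mean enters both single changes with one sign and the departure with the other, so noise in the controls alone favours saturation over synergy, and the class counts are a description.

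Fewer genes were called with fewer controls. With Sham 1 and Sham 6 as the only controls, 3151 genes (19.8%) departed, 1309 higher (8.20%) and 1842 lower (11.5%), in the classes saturation 1847, loss 918, opposing 1, synergy 310 and other 75. Calls of the same sign under both sets of controls numbered 2818, which is 55.8% of the calls with 6 controls and 89.4% of those with 2, and 0 genes were called with opposite signs. The smaller set changes both which and how many controls enter. With the letter as a covariate, 617 genes (3.87%) departed, 206 higher (1.29%) and 411 lower (2.58%), in the classes saturation 514, loss 101, opposing 0 and synergy 2.

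With the R libraries alone, which leaves RM 1 as the only RM library and assumes that RM varies like the other groups, limma called 0 genes, with 2079 genes at an unadjusted p under 0.05 and a smallest adjusted p of 0.082. The 5054 departures kept their sign for 5051 genes under the letter covariate and for 5029 genes (99.5%) in the R libraries, with a median size of 0.88 on the log2 scale in the fit of all libraries, 0.70 with the covariate and 0.61 in the R libraries. These fits share libraries, so their signs are not independent. The letter coefficient itself passed for 1 gene. Departures called with 1 sign under 6 controls, under 2 controls and under the letter covariate numbered 599 (3.75%), of which 194 were higher (1.22%) and 405 lower (2.54%), and 569 of them belonged to saturation.

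**Figure D1:**
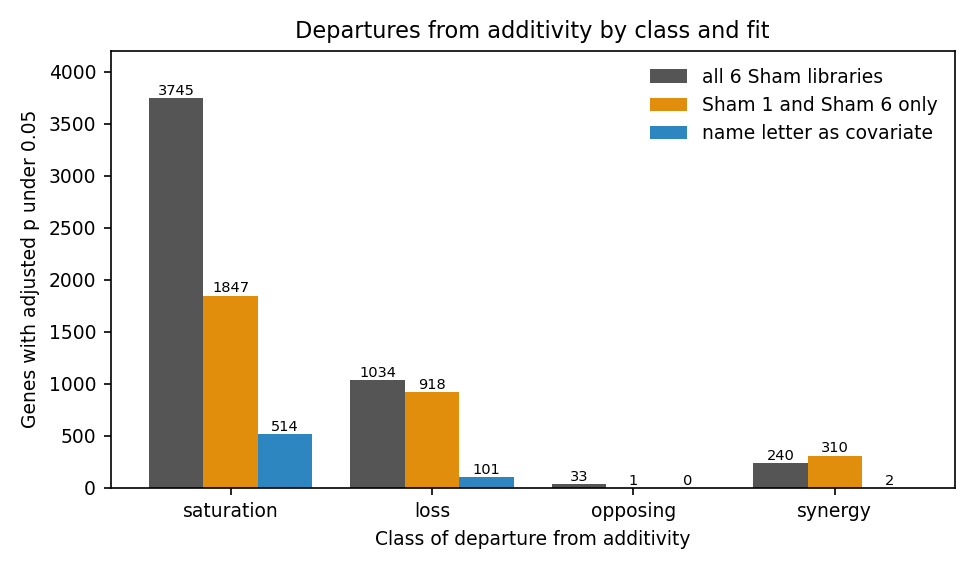
Number of genes called (y axis) in each class of departure (x axis) in the fit with all 6 Sham libraries, with Sham 1 and Sham 6 only, and with the name letter as a covariate; genes in no class (2 and 75 in the first and second fit) are left out. Saturation was the most frequent class in each of these fits, with 3745, 1847 and 514 genes, while opposing fell from 33 to 1 and 0.

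In most saturated genes RM-HS was not called different from the stronger single injury. Among the 3745 genes, RM-HS did not pass against the larger single change in 3199, fell short of it in 543 and went beyond it in 3. The class was chosen by the departure and both single changes, so these counts and the medians below follow in part from that choice. For the 2028 genes that rose, the median log2 change from Sham was 0.78 in RM, 0.76 in HS and 0.60 in RM-HS, so that HS on top of RM came to a median of -0.16. The 1717 genes that fell had medians of -0.77 in RM, -0.78 in HS and -0.56 in RM-HS, and HS on top of RM came to 0.18. On a linear scale, RM-HS lay below the sum RM plus HS minus Sham for 2025 of the 2028 rises. These rises were chosen by a negative departure in the same values, so the count is a description and no independent check. For falls the linear sum is lower than the log prediction by construction, so the linear scale adds nothing there. A p that misses the threshold does not show that RM-HS and the stronger injury were equal.

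Immediate early transcription factors, which respond first to stress and growth signals, departed lower in 8 of 23 tested members, beside 16.8% of all genes. RM raised 21 of the 23 and HS 11, and 0 departed higher (10 lower and 0 higher with 2 controls, 3 and 0 with the letter covariate). The median departure was -0.46, beside 0.02 for all genes. Atf3, a stress-induced repressor of the ATF/CREB family (chr13:109817895-109849639, rn6), reached almost the same level with or without HS once RM was present. Atf3 read 115 to 363 (median 186) in the 6 Sham libraries, 10315 to 27731 (median 13345) in the 6 RM libraries, 877, 1981, 2282, 2679.5 and 799 in HS 1 to HS 5 and 17902, 16859 and 11091 in RM-HS 1 to RM-HS 3. All RM-HS libraries lay above all HS libraries and inside the RM range. The RM change was 6.24 ± 0.31, the HS change 2.99 ± 0.33 and the change of RM-HS against RM 0.04 ± 0.38 (log2 ± SE), which gave a departure of -2.95 ± 0.50 (SE; adjusted p = 0.000299).

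Myc, a growth-promoting transcription factor, behaved in the same manner. Myc read 274 to 557 (median 359.5) in the 6 Sham libraries, 4814 to 9264 (median 6561) in the 6 RM libraries, 1781, 1923, 1828, 1564 and 1377 in HS 1 to HS 5 and 7197, 7278 and 2876 in RM-HS 1 to RM-HS 3. HS and Sham did not overlap, nor did RM-HS and HS, whereas RM-HS overlapped RM and its lowest library was RM-HS 3. The departure was -2.56 ± 0.33 (SE; adjusted p = 5.14e-05). Fosl1, an AP-1 subunit, departed by -4.46 ± 0.77 (SE; adjusted p = 0.000325) and Klf6, a zinc finger factor induced by tissue injury, by -2.18 ± 0.36 (SE; adjusted p = 0.000272); with the letter covariate these were -3.41 (adjusted p = 0.0622) and -1.59 (adjusted p = 0.0606), whereas Atf3, Myc and Fosl2 stayed called. Mitogen feedback genes, which restrain MAP kinase signalling, departed lower in 6 of 13 and higher in 0, beside 16.8% of all genes lower. Dusp8, a phosphatase of stress-activated kinases, had 6 Sham values of 99.5 to 174 (median 139.5), RM values of 1058 to 1893 (median 1112), HS values of 442, 506, 599.8, 738 and 479 and RM-HS values of 1899, 1489.6 and 1592, and departed by -1.57 ± 0.26 (SE; adjusted p = 0.000263).

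The NRF2 antioxidant list departed lower in 9 of 20 members and higher in 1 under both sets of controls. The share of all genes lower was 16.8% with all controls and 11.5% with 2. The smallest adjusted p of the list was that of Srxn1, sulfiredoxin, which repairs over-oxidized peroxiredoxins (chr3:147603969-147632803, rn6). Srxn1 read 242 to 719 (median 519.6) in the 6 Sham libraries, 16421 to 27522 (median 20906) in the 6 RM libraries, 2326, 3947, 4462, 3144 and 2946 in HS 1 to HS 5 and 19066, 16528 and 5719 in RM-HS 1 to RM-HS 3. RM, HS and Sham formed 3 separate ranges, RM-HS lay above HS, and RM-HS 3 lay in the gap between HS and RM. On the log scale the mean of RM-HS was 12169.8 against 149712 predicted by additivity, a departure of -3.62 ± 0.45 (SE; adjusted p = 3.24e-05). The letter covariate left it at -3.55 (adjusted p = 0.0108). Txnrd1, thioredoxin reductase 1, rose by 2.88 ± 0.18 with RM and 1.56 ± 0.19 with HS, changed by -0.46 ± 0.22 when HS came on top of RM, and departed by -2.01 ± 0.29 (SE; adjusted p = 0.000107).

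Slc7a11, the cystine importer that supplies glutathione synthesis, rose more with RM than with HS, by 8.26 ± 0.61 against 2.00 ± 0.64 on the log2 scale. Slc7a11 read 3.8 to 37.7 (median 17.1) in the 6 Sham libraries, 651 to 9529 (median 6085) in the 6 RM libraries, 49.0, 166, 85.7, 29.4 and 28.8 in HS 1 to HS 5 and 2006, 2131 and 899 in RM-HS 1 to RM-HS 3. RM 1 was the lowest RM library, below the RM-HS libraries, and 2 HS libraries lay within the Sham range. The departure of -3.51 ± 0.99 (SE; adjusted p = 0.0109) was -2.97 (adjusted p = 0.219) with the letter covariate.

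Promoter windows of 3 saturated genes, from the antioxidant, immediate early and chaperone lists, are shown so that the letters at their start sites can be read beside the values. They come from RefSeq on GRCr8, run 5′ to 3′ on the gene's strand from 250 bases before the start to 20 after it, and have in capitals every match on either strand to AP-1 (TGANTCA), the antioxidant response core (TGANNNNGC), CRE (TGACGTCA), the E-box (CACGTG) or the heat shock core (GAANNTTC). Srxn1 lies at chr3:161064562-161064831 on the plus strand, Klf6 at chr17:69458459-69458728 on the minus strand and Dnaja1, a chaperone described below, at chr5:60638154-60638423 on the plus strand.
Srxn1: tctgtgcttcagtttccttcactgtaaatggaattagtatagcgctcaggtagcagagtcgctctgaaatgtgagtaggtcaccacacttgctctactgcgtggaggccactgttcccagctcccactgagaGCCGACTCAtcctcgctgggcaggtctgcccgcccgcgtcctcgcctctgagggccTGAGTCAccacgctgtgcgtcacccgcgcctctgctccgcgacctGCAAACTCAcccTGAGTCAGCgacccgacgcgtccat
Klf6: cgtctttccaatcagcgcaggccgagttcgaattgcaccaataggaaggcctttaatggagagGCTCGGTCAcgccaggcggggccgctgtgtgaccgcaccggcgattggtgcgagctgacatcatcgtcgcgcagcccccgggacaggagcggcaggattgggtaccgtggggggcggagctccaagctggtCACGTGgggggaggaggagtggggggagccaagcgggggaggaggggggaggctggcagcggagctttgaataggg
Dnaja1: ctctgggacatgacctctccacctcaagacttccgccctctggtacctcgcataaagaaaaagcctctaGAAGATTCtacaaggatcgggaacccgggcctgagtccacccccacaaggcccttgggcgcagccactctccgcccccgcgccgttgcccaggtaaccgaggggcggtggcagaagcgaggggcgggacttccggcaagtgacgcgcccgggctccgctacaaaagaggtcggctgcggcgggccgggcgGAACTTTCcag
An AP-1 match can overlap an antioxidant response match, as in the Srxn1 window. Among the matched windows of 300 bases, the E-box occurred in 13.1% of 1490 saturated rises, 8.32% of 1226 saturated falls, 8.98% of 10181 tested genes and 6.65% of all 27457 windows. CRE occurred in 3.69% of the saturated rises, 1.88% of the saturated falls and 2.84% of the tested genes, and the antioxidant response core in 43.7%, 40.9% and 43.2%. AP-1 occurred in 3.96%, 3.83% and 5.45%, and the heat shock core in 5.50%, 5.46% and 5.80%. A match is a run of letters, not a bound site.

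Haem and iron genes departed lower in 5 of 19 tested members and higher in 0, or 3 and 0 with 2 controls. Of all genes, 16.8% departed lower, or 11.5% with 2 controls, and the list was not tested against these shares. Bach1, the haem-sensing repressor of the haem oxygenase gene, gave the smallest adjusted p of that list (chr11:27364916-27398527, rn6). Bach1 read 803 to 1009 (median 859.9) in the 6 Sham libraries, 5733 to 10587 (median 8589) in the 6 RM libraries, 2110.4, 3443, 3031, 2588 and 2477 in HS 1 to HS 5 and 7681, 5785 and 3789.6 in RM-HS 1 to RM-HS 3. The 4 groups were ordered Sham, HS, RM-HS and RM by mean, with overlap only between RM-HS and RM. Its departure was -2.18 ± 0.25 (SE; adjusted p = 2.03e-05), and -1.98 (adjusted p = 0.0108) with the letter covariate. Ireb2, an RNA-binding regulator of iron import and storage, was highest in HS alone, at 4262, 4299, 3484, 3999 and 4531, against 3067, 2328 and 2531 in RM-HS. All HS libraries exceeded all RM-HS libraries, and the departure was -1.31 ± 0.20 (SE; adjusted p = 0.000122).

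Hmox1, haem oxygenase 1, which opens the haem ring, departed with all controls but not with 2. Hmox1 read 400.1 to 12908 (median 448) in the 6 Sham libraries, 109354 to 172376 (median 164607) in the 6 RM libraries, 2468, 36015, 4966, 3155 and 4316 in HS 1 to HS 5 and 105490.3, 132574 and 38141 in RM-HS 1 to RM-HS 3. Sham 6, HS 2 and RM 1 stood apart from their groups by Dixon's test, which was not run on the 3 RM-HS libraries, of which RM-HS 3 was the lowest. The departure of -3.81 ± 1.16 (SE; adjusted p = 0.0172) became -2.21 (adjusted p = 0.254) with Sham 1 and Sham 6 as the only controls and -4.26 (adjusted p = 0.135) with the letter covariate, and without RM-HS 3 it was -3.26 (adjusted p = 0.0662).

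Injury markers of the tubule departed lower in 7 of 19 members and higher in 0, beside 16.8% of all genes lower. With 2 controls these were 11 and 0, beside 11.5%. Havcr1, kidney injury molecule 1, a phosphatidylserine receptor of the damaged proximal tubule (chr10:31814245-31846857, rn6), rose by 5.01 ± 0.58 with RM and by 6.63 ± 0.61 with HS. Havcr1 read 39.4 to 249 (median 152) in the 6 Sham libraries, 923 to 9645 (median 6071) in the 6 RM libraries, 7146, 16975, 29197, 14747 and 4719.9 in HS 1 to HS 5 and 10917, 7741 and 5765 in RM-HS 1 to RM-HS 3. The RM-HS range lay inside the HS range and overlapped RM, and all injured libraries exceeded all Sham libraries. The departure was -5.62 ± 0.94 (SE; adjusted p = 0.000272), with RM-HS at 7869 against 386871 predicted on the log scale. Itgb6, the epithelial integrin subunit that activates TGF-beta, reached 3147 to 4225 (median 3485) in RM, 3003, 3080.4, 3664, 3225 and 3024 in HS and 3562, 3097 and 3641 in RM-HS from 1074 to 1789 (median 1472) in Sham. The 3 injured groups overlapped one another, and the departure was -1.18 ± 0.16 (SE; adjusted p = 6.74e-05).

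Fgb, the fibrinogen beta chain, departed by -5.68 ± 1.03 (SE; adjusted p = 0.000496) and Clu, clusterin, a secreted chaperone, by -1.69 ± 0.42 (SE; adjusted p = 0.00496); the letter covariate took them to -4.54 (adjusted p = 0.0699) and -1.13 (adjusted p = 0.252). 3 further injury markers did not pass. Lcn2, the lipocalin NGAL, had a departure of -0.04 ± 2.11 (SE; adjusted p = 0.991), Spp1, osteopontin, -0.78 ± 0.62 (SE; adjusted p = 0.361) and Krt20, a keratin of injured epithelium, -1.78 ± 1.03 (SE; adjusted p = 0.199). Lcn2 spread from 19.8 to 4392 (median 1298) within Sham and from 293 to 18242 (median 3821) within RM, so a departure within a few SE was not detectable at this spread. Krt20 was instead a gene of HS that RM-HS held at a lower level: it read 0 to 5.07 (median 1.48) in RM, 1050.2, 417, 358, 410.4 and 275 in HS and 123, 69.8 and 25.7 in RM-HS. RM-HS lay below every HS library, by -2.86 on the log2 scale (adjusted p = 0.0173), and above every RM library.

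Neutrophil markers, whose list includes Lcn2, departed in 0 of 11 members by limma. Their summed level was 3323 to 12040 in Sham, 7250 to 41887 in RM, 4213 to 21503 in HS and 24181 to 41489 in RM-HS. By limma with all controls the macrophage, fibroblast and lymphocyte lists also had 0 departures in 12, 12 and 11 members. With 2 controls, 1 neutrophil, 1 macrophage, 0 fibroblast and 0 lymphocyte genes departed lower, beside 11.5% of all genes, and 0 higher. The neutrophil median departure was -0.67 with all controls and -1.49 with 2. With all controls and an unadjusted p under 0.05, 2 neutrophil, 0 macrophage, 1 fibroblast and 0 lymphocyte genes departed, and edgeR and DESeq2 called 0 in each list. Their part in the departures of other lists was not tested.

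**Figure D2:**
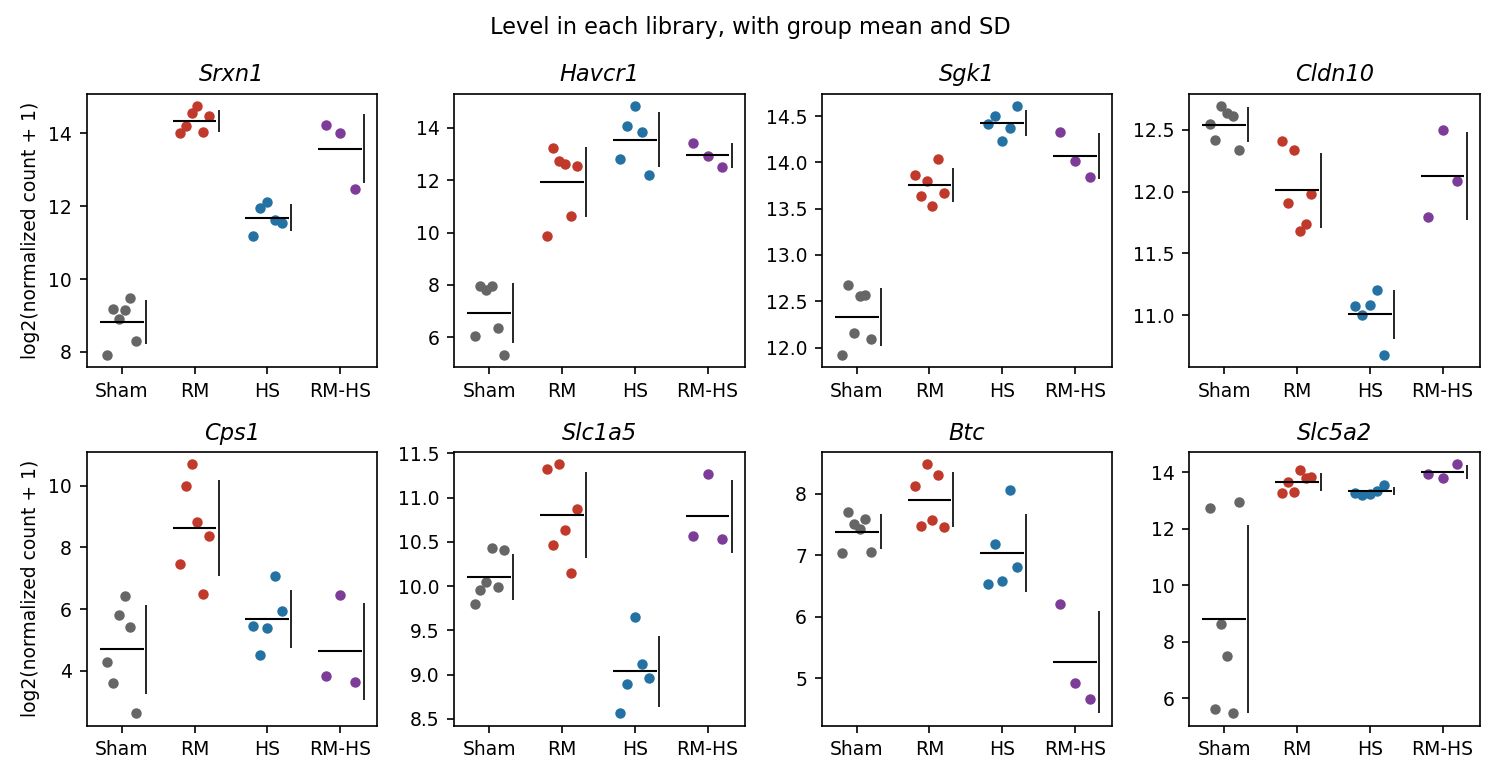
Level of 8 genes in each library, as log2(normalized count + 1) on the y axis, by group on the x axis; horizontal lines are group means and vertical lines ± 1 SD. In RM-HS, Havcr1 lies inside the HS range, Sgk1 lies across the RM and HS ranges and Srxn1 has 2 libraries in the RM range and RM-HS 3 below it, Cldn10 and Cps1 return towards Sham in RM-HS, Slc1a5 and Btc show opposing and joint effects, and Slc5a2 has 2 high and 4 low Sham libraries.

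Most glucocorticoid response genes rose with each injury, and some of them departed lower. Of 12 tested members of that list, which includes metallothioneins, RM raised 10 and HS 10. Among the 12, 4 departed lower and 0 higher (8 and 0 with 2 controls, 3 and 0 with the letter covariate). The share of all genes lower was 16.8%, 11.5% and 2.58% in these 3 fits. Sgk1, a kinase that stimulates sodium channels (chr1:24185454-24193567, rn6), had the smallest adjusted p of the list. Sgk1 read 3882 to 6536 (median 5286) in the 6 Sham libraries, 11838 to 16857 (median 13619.7) in the 6 RM libraries, 21803, 23094, 19285, 21104 and 24981 in HS 1 to HS 5 and 20624, 16585 and 14725 in RM-HS 1 to RM-HS 3. HS was above RM in all libraries, and RM-HS overlapped both. The departure was -1.78 ± 0.20 (SE; adjusted p = 1.99e-05), -2.10 (adjusted p = 6.09e-05) with 2 controls and -1.77 (adjusted p = 0.0063) with the letter covariate.

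Angptl4, a lipoprotein lipase inhibitor induced by fasting, and Pdk4, which blocks pyruvate entry into the mitochondrion, were lower in RM-HS than either injury's mean. Angptl4 averaged 1362 in Sham, 7174 in RM, 5931 in HS and 4526 in RM-HS, a departure of -2.77 ± 0.35 (SE; adjusted p = 3.65e-05). Pdk4 read 2662, 2565, 1879, 3451 and 4054 in HS and 2459.6, 897 and 1144 in RM-HS, where only RM-HS 1 reached the HS range, and departed by -2.86 ± 0.37 (SE; adjusted p = 5.08e-05). RM-HS fell short of HS for Pdk4 by -1.05 (adjusted p = 0.0158).

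Among p53 targets, 6 of 14 departed lower and 2 higher, beside 16.8% and 14.9% of all genes. With 2 controls these were 3 and 0, beside 11.5% and 8.20%. Tp53inp1, a stress-induced regulator of p53 and autophagy, responded mainly to HS and was lower with both injuries than with HS alone. Tp53inp1 read 267 to 822 (median 642) in the 6 Sham libraries, 836 to 1475 (median 1179.7) in the 6 RM libraries, 4851, 4101, 2256, 3180.0 and 3324 in HS 1 to HS 5 and 1390.4, 1437 and 1005 in RM-HS 1 to RM-HS 3. All HS libraries exceeded all RM-HS libraries, while RM-HS overlapped RM. RM-HS was lower than HS by -1.44 on the log2 scale (adjusted p = 0.00221), and the departure was -2.42 ± 0.37 (SE; adjusted p = 0.000155). The call held with the letter covariate, at -2.71 (adjusted p = 0.0142).

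Heat shock chaperones were raised by both injuries in most cases. RM raised 12 and HS 9 of 13 heat shock chaperones, and 6 departed lower and 0 higher, beside 16.8% of all genes lower. With the letter covariate limma called 0 of the 13, with 4 at an unadjusted p under 0.05. Of 20 integrated stress and unfolded protein genes, RM raised 15 and HS 10, and 6 departed lower and 0 higher, or 1 and 0 with the letter covariate. Dnaja1, an HSP70 co-chaperone, read 18172, 27677, 27443, 31195 and 15365 in HS and 19599, 20638 and 27893 in RM-HS, and departed by -1.75 ± 0.40 (SE; adjusted p = 0.00272), or -1.57 (adjusted p = 0.112) with the letter covariate. RM 3 was its highest library, at 68351 against 31195 in the next highest, HS 4. Dnajb9, a chaperone of the endoplasmic reticulum, departed by -1.75 ± 0.30 (SE; adjusted p = 0.000311) and stayed called with the covariate.

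Cholesterol synthesis genes, which answer to SREBP2, departed lower in 8 of 17 members and higher in 1, beside 16.8% of all genes lower. Insig1, the sterol-sensing brake on SREBP2 processing, rose by 2.58 ± 0.11 with RM and 1.002 ± 0.12 with HS. Insig1 read 883 to 1111 (median 1038) in the 6 Sham libraries, 4759.9 to 7747 (median 6142) in the 6 RM libraries, 1869, 2294, 1873, 2138 and 1875 in HS 1 to HS 5 and 5038, 5459 and 3996 in RM-HS 1 to RM-HS 3. The 4 groups did not overlap apart from RM-HS with RM, and the departure was -1.32 ± 0.18 (SE; adjusted p = 6.6e-05). Cyp51, lanosterol demethylase, was lower in RM-HS than in RM in all libraries, by -0.68 (adjusted p = 0.0283).

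Hypoxia genes departed lower in 5 of 17 members and higher in 0, beside 16.8% of all genes lower. Ndrg1, a stress protein induced by low oxygen, read 21363 to 32550.4 (median 27008) in Sham, 84794 to 177822 (median 168753) in RM, 89740.3, 117699, 86282, 112021 and 133027 in HS and 167006, 129870.4 and 123335 in RM-HS. Sham was below every injured library, and the 3 injured groups overlapped. Its departure was -2.11 ± 0.28 (SE; adjusted p = 5.41e-05). Of 23 cytokine genes and NF-kB targets, RM raised 19 and HS 4, beside 26.2% and 23.3% of all genes. Among the 23, 2 departed lower and 1 higher, beside 16.8% and 14.9% of all genes. With the letter covariate these were 2 and 0, beside 2.58% and 1.29%.

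**Figure D3:**
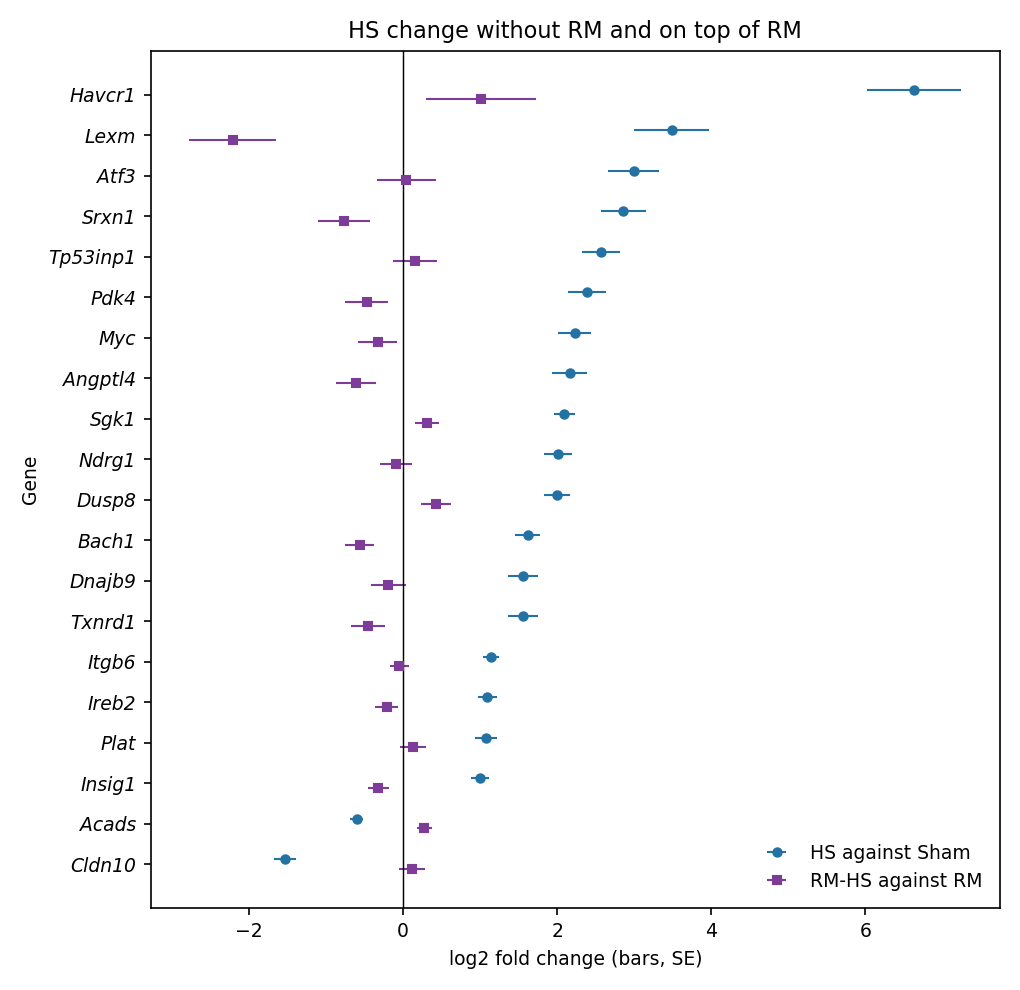
The log2 change of HS against Sham (circles) and of RM-HS against RM (squares), each with its SE, for 20 of the 22 named genes whose departure was called under all controls, 2 controls and the letter covariate. The circles lie between -1.53 for Cldn10 and 6.63 for Havcr1, whereas the squares lie between -2.21 for Lexm and 1.01 for Havcr1; the genes were chosen by the departure, so the gap is a description.

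Several of the largest fitted departures belonged to genes with low values in at least 1 group. Gjd2, the gap junction protein connexin 36, read 13.7 to 156 (median 49.7) in Sham, 0 to 33.9 (median 3.17) in RM, 10.8, 20.4, 0, 1.96 and 0 in HS and 73.0, 25.6 and 18.5 in RM-HS. RM-HS overlapped Sham, and the departure was 6.81 ± 1.56 (SE; adjusted p = 0.00277), or 3.52 (adjusted p = 0.292) with the letter covariate. Csrp3, muscle LIM protein, read 1.52 to 128 (median 19.9) in Sham, 318 to 4074 (median 1000.1) in RM, 257, 519, 1482, 1149.8 and 564 in HS and 1054, 1031 and 275 in RM-HS. All injured libraries lay above all Sham libraries, and the departure was -6.16 ± 1.27 (SE; adjusted p = 0.00125), or -5.49 (adjusted p = 0.0814) with the letter covariate. Lrtm2 departed by 6.08 ± 1.21 (SE; adjusted p = 0.000963) and Lypd8 by -5.92 ± 1.18 (SE; adjusted p = 0.000999), and with the letter covariate these were 3.46 (adjusted p = 0.17) and -5.88 (adjusted p = 0.0522). With a pseudocount of 8 the departures of Gjd2, Lrtm2, Csrp3 and Lypd8 were 3.79, 3.14, -5.41 and -3.52, each still called. For Gjd2 and Lrtm2 the level predicted by additivity on the log scale was below 0, at -0.70 and -0.85. No count can fall that low, so for these 2 genes RM-HS could not have matched the additive value, whatever the pseudocount result.

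Lexm, the lymphocyte expansion molecule, had the largest departure among the named genes called in all 3 fits, -5.70 ± 0.74 (SE; adjusted p = 5.14e-05). It rose from 6.08 to 29.1 (median 12.3) in Sham to 1053 to 4423 (median 2935) in RM and read 69.0, 316, 199, 154 and 120.1 in HS and 634, 1435 and 205 in RM-HS. RM-HS overlapped both injuries, and RM-HS 3 was within the HS range.

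Most thick ascending limb markers fell with each injury. For the thick ascending limb, which reabsorbs salt and dilutes the urine, RM lowered 9 and HS 10 of 11 markers. Of the 11, 7 departed higher and 0 lower (6 and 0 with 2 controls, 2 and 0 with the letter covariate). Of all genes, 14.9% departed higher with all controls, 8.20% with 2 controls and 1.29% with the letter covariate. The median departure was 1.39. The median change from Sham was -1.08 in RM, -1.25 in HS and -1.33 in RM-HS, so the list median was not nearer to Sham in RM-HS. RM-HS differed from HS in 2 of the 11 markers and from RM in 0, beside 20.6% and 1.08% of all genes. Summed thick limb markers were 219536 to 381459 in Sham, 133880.4 to 259793 in RM, 99642 to 165132 in HS and 174491 to 214538 in RM-HS. Cldn10, a claudin of the paracellular sodium path (chr15:104026601-104115748, rn6), was lowest in HS. Cldn10 read 5164 to 6629 (median 6143) in the 6 Sham libraries, 3275 to 5452 (median 3949) in the 6 RM libraries, 2158, 2043, 2171, 2354 and 1638 in HS 1 to HS 5 and 3546, 5792 and 4348 in RM-HS 1 to RM-HS 3. HS lay below every other library, and RM-HS overlapped Sham and RM. RM-HS exceeded HS by 1.12 on the log2 scale (adjusted p = 0.000218), and the departure was 1.65 ± 0.22 (SE; adjusted p = 5.14e-05) and 1.32 (adjusted p = 0.0209) with the letter covariate.

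Umod, uromodulin, the most abundant protein of normal urine, showed the same sign. Umod read 132353 to 235326 (median 192489) in the 6 Sham libraries, 60679.6 to 139783 (median 88515) in the 6 RM libraries, 97715, 53265, 107413, 79260.5 and 78838 in HS 1 to HS 5 and 118272, 132613 and 132824 in RM-HS 1 to RM-HS 3. RM-HS lay above all HS libraries, within the RM range and overlapping Sham. It departed by 1.73 ± 0.32 (SE; adjusted p = 0.00055) and lost the call with the letter covariate, at 1.29 (adjusted p = 0.0861).

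Collecting duct markers called with all controls also departed higher. For the 5 tested distal convoluted tubule markers, 1 departed higher and 1 lower, with a median of -0.27. Principal cell markers departed higher in 3 of 11 and lower in 0, and intercalated cell markers in 4 of 10 and 0, beside 14.9% of all genes higher. With 2 controls, 1 principal and 2 intercalated cell markers departed higher, beside 8.20% of all genes, and the lists were not tested against these shares. With the letter covariate limma called 0 in either list, with 2 principal and 3 intercalated cell markers at an unadjusted p under 0.05. Hsd11b2, which protects the mineralocorticoid receptor from cortisol-like hormones, read 3722 to 9007 (median 6602) in Sham, 1265 to 2865 (median 1451) in RM, 2234, 2243, 2536, 2051 and 2482 in HS and 1354, 2422 and 2148 in RM-HS. All injured libraries were below all Sham libraries, and the departure was 1.63 ± 0.35 (SE; adjusted p = 0.0018), or 1.10 (adjusted p = 0.174) with the letter covariate. Slc4a1, the anion exchanger of intercalated cells and red cells, departed by 2.04 ± 0.40 (SE; adjusted p = 0.000923), or 1.72 (adjusted p = 0.0825) with the letter covariate. Summed red cell markers, a list that includes Slc4a1, were 264743 to 1542002 in Sham, 441930.4 to 1188622 in RM, 100844 to 547956 in HS and 435747 to 1262379 in RM-HS, and their part in this departure was not tested.

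Nuclear genes of oxidative phosphorylation were lowered by HS more often than by RM. Of 19 tested, HS lowered 11 and RM 2, and 12 departed higher and 0 lower (6 and 0 with 2 controls). The share of all genes higher was 14.9%, or 8.20% with 2 controls. Among the 12 genes, 8 belonged to loss, 2 to saturation and 2 to synergy. RM-HS differed from HS in 13 of the 19, beside 20.6% of all genes. Uqcrc1, a core subunit of complex III, read 18259 to 23991 (median 21201) in Sham, 17218 to 20323 (median 18628) in RM, 17275, 15472, 16327, 14622 and 17943 in HS and 19231, 22733 and 21219.8 in RM-HS. Every HS library lay below every Sham and RM-HS library, and the departure was 0.54 ± 0.12 (SE; adjusted p = 0.00298). Ndufv1, which holds the NADH site of complex I, departed by 0.68 ± 0.11 (SE; adjusted p = 0.000272). With the letter covariate limma called 0 of the 19, 10 of which had an unadjusted p under 0.05, with Ndufv1 at 0.50 (adjusted p = 0.059) and Uqcrc1 at 0.45 (adjusted p = 0.134).

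Fatty acid oxidation genes departed higher in 7 of 20 members and lower in 0, beside 14.9% of all genes higher. Acads, short-chain acyl-CoA dehydrogenase, was the member called in all 3 fits. Acads read 4178 to 5763 (median 4757) in the 6 Sham libraries, 3298 to 3929 (median 3645) in the 6 RM libraries, 3466, 2951, 3306, 2781 and 3516 in HS 1 to HS 5 and 4266, 4316 and 4612 in RM-HS 1 to RM-HS 3. RM-HS lay above all RM and all HS libraries and overlapped Sham. The departure was 0.88 ± 0.13 (SE; adjusted p = 0.000113), and RM-HS exceeded HS by 0.46 (adjusted p = 0.00373).

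Most genes of the loss class passed with HS alone, and membership depended on the fit. With 2 controls, 246 of the 1034 genes kept the class and 381 kept the call and sign. The class holds 26 of the genes called in all 3 fits. It rests on the other injury missing the threshold, which does not show that this injury had no effect. HS alone passed for 771 of the 1034 genes, 368 raised and 403 lowered, and in 576 of them RM-HS also differed from HS in the direction of the loss. RM alone passed for 263 genes, 117 raised and 146 lowered, and RM-HS differed from RM in 35. With the letter covariate, RM-HS differed from RM in 0 of all genes and from HS in 2292. Among lost RM responses was Cps1, carbamoyl phosphate synthetase 1, the first enzyme of the urea cycle (chr9:74113437-74236270, rn6). Cps1 read 5.14 to 84.7 (median 30.1) in the 6 Sham libraries, 88.8 to 1656 (median 396) in the 6 RM libraries, 43.2, 21.5, 40.6, 134 and 60.8 in HS 1 to HS 5 and 13.1, 86.1 and 11.4 in RM-HS 1 to RM-HS 3. All RM-HS libraries were below all RM libraries and overlapped Sham and HS. RM raised it by 3.95 ± 0.73, and RM-HS was lower than RM by -4.01 (adjusted p = 0.0362). The departure of -5.00 ± 1.18 (SE; adjusted p = 0.0033) became -3.26 (adjusted p = 0.227) with the letter covariate. Summed liver markers, a list without Cps1, were 303 to 1568 in Sham, 1116 to 6048 in RM, 793 to 2066 in HS and 589 to 1227 in RM-HS. The median departure of the 7 liver markers was -1.51, with 1 called lower. Their part in the Cps1 departure was not tested.

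Fxyd3, a regulator of the sodium pump, had a large fitted departure, 5.88 ± 2.05 (SE; adjusted p = 0.0342), that followed the name letter. It was listed at 0 in RM 2 to RM 6 and in HS 4 and HS 5, which are all the S libraries, and at 4.56 to 184 in the R libraries of Sham. Its level predicted by additivity on the log scale was below 0, at -0.42, which no count can reach. With the letter covariate its departure was -1.35 (adjusted p = 0.657), and the call was also lost without any 1 of Sham 2 to 4, RM 2 to 6, HS 4, HS 5, RM-HS 2 or RM-HS 3 (adjusted p of 0.0504 to 0.0993).

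Opposing responses were few, with 33 genes, or 20 without RM-HS 3. RM raised and HS lowered 8 genes, of which RM-HS differed from HS in 7 and from RM in 1. RM lowered and HS raised 25 genes, of which RM-HS differed from HS in 25 and from RM in 0. Slc1a5, a glutamine transporter, kept the RM direction. Slc1a5 read 889 to 1374 (median 1033) in the 6 Sham libraries, 1137 to 2657 (median 1730.5) in the 6 RM libraries, 377, 474, 802, 553 and 496 in HS 1 to HS 5 and 1516, 2459 and 1479 in RM-HS 1 to RM-HS 3. RM-HS lay above all HS and all Sham libraries, and the departure of 1.05 ± 0.34 (SE; adjusted p = 0.0221) was lost without RM-HS 2, at 0.81 (adjusted p = 0.0946), and with 2 controls, at 1.05 (adjusted p = 0.0903). Odad4, a ciliary dynein docking gene, lost its RM rise: RM read 528 to 1398 (median 965), HS 176, 98.6, 146, 125 and 207 and RM-HS 177, 381 and 135. It departed by -1.43 ± 0.40 (SE; adjusted p = 0.0109), and by -1.11 (adjusted p = 0.0554) without RM-HS 3.

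Dstyk, a dual serine, threonine and tyrosine kinase, and Zfp329, a zinc finger gene, fell below both single injuries in RM-HS. Dstyk read 647 to 923 (median 721) in the 6 Sham libraries, 479 to 787 (median 534) in the 6 RM libraries, 924, 881, 1036, 1189.9 and 1180.0 in HS 1 to HS 5 and 432, 378 and 366 in RM-HS 1 to RM-HS 3. No RM-HS library reached any other group, although HS had raised the gene, and the departure was -1.04 ± 0.20 (SE; adjusted p = 0.000664). Zfp329 read 238, 333, 303, 370.2 and 362 in HS and 105, 102 and 118.3 in RM-HS, also below every other library, and departed by -1.07 ± 0.24 (SE; adjusted p = 0.0022). With the letter covariate these departures were -0.72 (adjusted p = 0.108) and -0.72 (adjusted p = 0.186). RM-HS passed against HS for both genes. It did not pass against RM, at -0.54 for Dstyk and -0.66 for Zfp329 (adjusted p = 0.0835 for each).

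Synergy was rarer than saturation or loss. In 225 of the 240 genes neither injury passed alone; RM-HS passed against Sham in 81 of them and differed from both single injuries in 19. The other 15 had 1 passing injury in the same direction, and RM-HS differed from both in 2. Btc, betacellulin, a ligand of the EGF receptor (chr14:18231854-18270621, rn6), differed from both single injuries in RM-HS. Btc read 129.9 to 206 (median 176) in the 6 Sham libraries, 175 to 355 (median 234) in the 6 RM libraries, 91.4, 144, 94.7, 267 and 110.5 in HS 1 to HS 5 and 73.0, 29.1 and 24.2 in RM-HS 1 to RM-HS 3. All RM-HS libraries were below all libraries of the other groups. RM-HS differed from Sham by -2.13 ± 0.35 (adjusted p = 8.88e-05), from RM by -2.64 ± 0.35 (adjusted p = 0.0015) and from HS by -1.77 (adjusted p = 0.0023). The departure was -2.29 ± 0.46 (SE; adjusted p = 0.00108), -2.63 (adjusted p = 0.00685) with 2 controls and -1.94 (adjusted p = 0.0872) with the letter covariate.

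Among other synergy genes with large departures, Kif5c and Dusp15 had values that switched between libraries of the same group. Kif5c, a neuronal kinesin, read 481, 4.3, 18.1, 2.35, 614 and 435 in Sham 1 to Sham 6 and 12.7, 778, 23.3, 20.4, 13.3 and 788 in RM 1 to RM 6. It read 2.71 to 11.6 (median 7.94) in HS and 559, 365 and 366 in RM-HS. With 2 controls it departed by 8.68 (adjusted p = 0.00498) and fell in the loss class, and with the letter covariate by 7.07 (adjusted p = 0.17). With all controls its departure of 5.73 ± 2.12 (SE; adjusted p = 0.0449) was lost without any 1 of 15 libraries (Sham 1, 5 or 6, RM 1, 3, 4 or 5, and each HS and RM-HS library), with adjusted p-values of 0.0502 to 0.0874. Dusp15, a phosphatase, read 324, 0 and 0 in RM-HS, and its departure of -6.57 ± 2.15 (SE; adjusted p = 0.0247) had adjusted p-values of 0.0989 without RM-HS 2 and 0.102 without RM-HS 3.

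Some departures came with the split among the controls. Slc5a2, the glucose transporter SGLT2 of the early proximal tubule, read 6791, 48.2, 396, 180.1, 43.1 and 7863 in Sham 1 to Sham 6, 9917 to 17203 (median 13628) in RM, 9926, 9389, 9717, 10485 and 12030.4 in HS and 15915, 14297 and 19919 in RM-HS. Only Sham 1 and Sham 6 came near the injured range. The departure of -4.16 ± 1.56 (SE; adjusted p = 0.0472) was -0.14 (adjusted p = 0.735) with these 2 as the controls, and that of Slc5a12, a lactate transporter of the same segment, went from -4.96 ± 1.66 (SE; adjusted p = 0.028) to -0.61 (adjusted p = 0.281). The call for Slc5a2 was lost without any 1 library other than Sham 1 or Sham 6 (adjusted p of 0.0503 to 0.0931), and that for Slc5a12 without RM-HS 2 (0.0667) or RM-HS 3 (0.051). Of 11 early proximal tubule markers, 5 departed lower with all controls and 0 with 2, and of 10 podocyte markers 5 and 1. The shares of all genes lower were 16.8% and 11.5%. With 2 controls, 1 early proximal tubule marker and 0 podocyte markers departed higher, beside 8.20% of all genes. Wt1, a podocyte transcription factor, was the podocyte marker that stayed called, from -2.09 ± 0.53 (SE; adjusted p = 0.0055) to -0.98 (adjusted p = 0.0239).

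**Figure D4:**
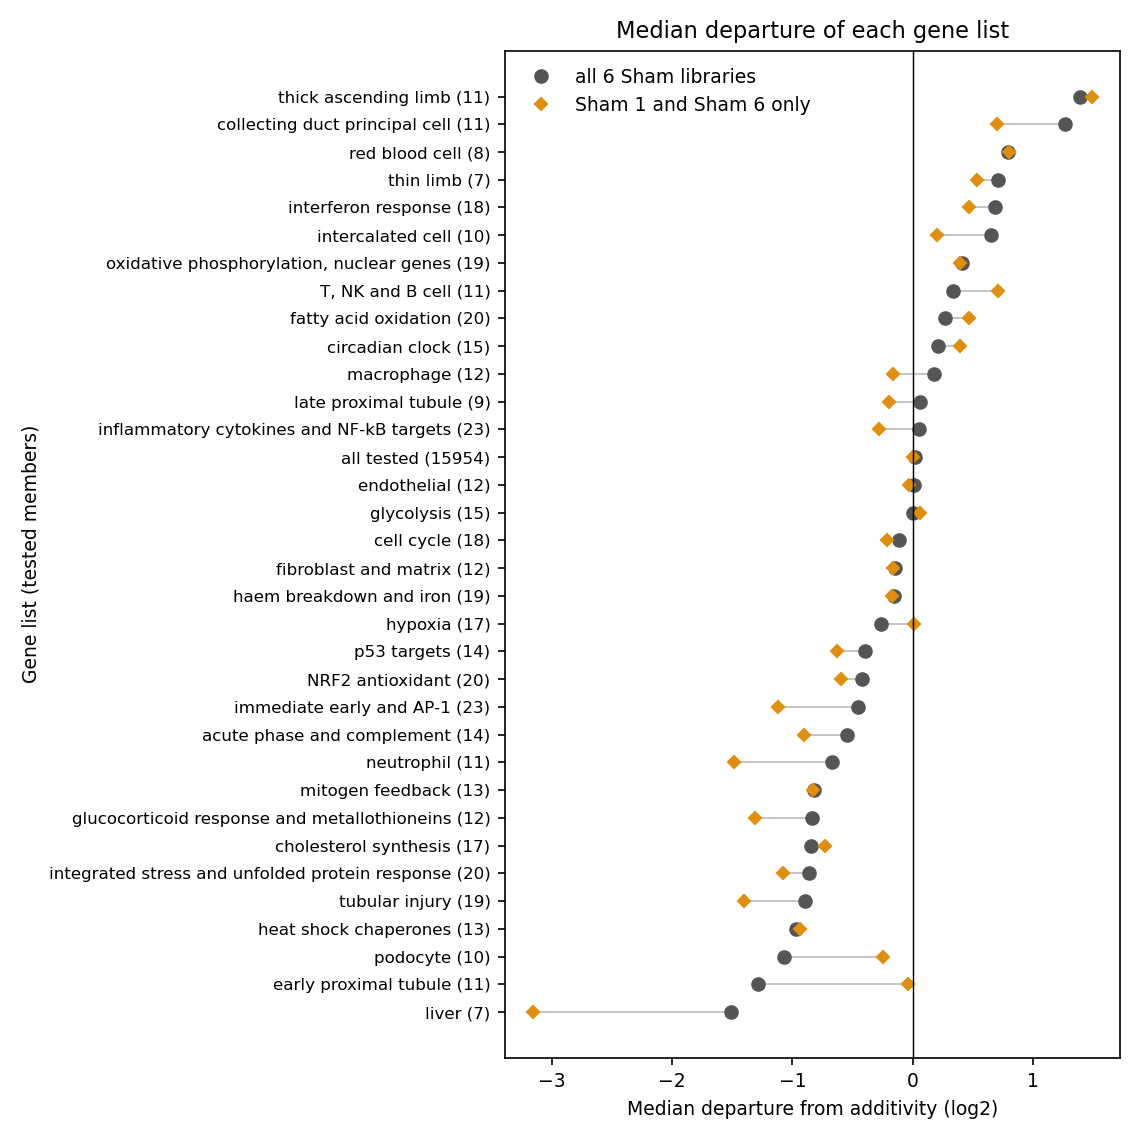
Median log2 departure (x axis) over the tested members of each gene list with at least 7 of them (y axis, number in brackets), with all 6 Sham libraries (circles) and with Sham 1 and Sham 6 only (diamonds). All genes sit at 0.02 and 0.00; thick ascending limb is highest at 1.39 and 1.49, whereas early proximal tubule moves from -1.29 to -0.04 and podocyte from -1.07 to -0.25.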

How the data were processed

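Total RNA from frozen rat kidney was sequenced as stranded mRNA libraries in paired ends, per the labels' protocols. The submitters' processing notes name FastQC 0.11.2, STAR, SAMtools 1.0, Picard 1.119, featureCounts of Subread 1.5.0, DESeq2 and the build rn6. The deposited values are a signal: gene counts divided by DESeq2 size factors, by the authors, in 1 table of 34681 genes with rn6 coordinates, of which 14588 are at 0 in every library. Whole reads were recovered from them (to a tolerance of 0.1 read, 100% of values came out whole). The reads entered edgeR 4.0.16 and DESeq2 1.42.0 as alternatives.

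The main fit was limma 3.58.1 with trend (R 4.3.3) on log2(value + 1), with 4 group means in 1 fit, over 15954 genes with at least 10 in at least 3 libraries. Of these, 12967 have a symbol. Adjusted p-values are Benjamini-Hochberg values over all tested genes. Single changes, RM-HS against each injury and the departure came from that fit. The scripts were tested on simulated data. Named genes had a departure called, a symbol and a highest group mean of at least 50: the 4 largest in each direction, in each class and in each direction under both sets of controls; 10 fixed genes; and up to 3 members by smallest adjusted p of each list with at least 1 in 4 members called. 93 genes met this rule; the text gives those its paragraphs turn on, and some are not reported here. Fosl2, a member of a fixed list, is named beside them because it was called in all 3 fits. Members and lists were chosen with earlier results of these data known. Promoter windows matched 10181 of 12964 tested symbols.

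The precision is limited by the number of libraries, with 3 for RM-HS, more than by depth, where the smallest library had 45047179 reads.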

Additional observations from a re-analysis of the deposited data

Results flagged for a closer look

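The HS change with and without RM differed in 5054 genes, which is the test of the departure itself; its counts under other settings are given above and below. Among the named genes, 25 of 279 groups (8.96%) had 1 library that stood apart by Dixon's test, where chance gives about 1 in 20.

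RM 1 accounted for 8 of these. It was the highest RM library for Fxyd3 (54.0), Wnk4 (1517) and Aqp3 (6227), and the lowest for Lexm (1053), Hmox1 (109354), Slc7a11 (651), Txnrd1 (31253) and Ndrg1 (84794). RM 1 is also the only RM library whose name begins with R. RM 3 was the highest RM library for Dnaja1 (68351) and Dusp8 (1893) and the lowest for Acadm (12093), and RM 5 was the lowest for Ly49i9 // LOC497796 (4.44).

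Among controls, Sham 6 was the highest for Hmox1 (12908), Sham 2 for Fga (13812) and Lypd8 (5.16), Sham 4 for Dstyk (923) and Sham 5 for Txnrd1 (8796). Sham 1 was the lowest for Acadm (14569.7) and Cox4i1 (27145), and Sham 3 for Tp53inp1 (267). In HS, HS 2 was the highest for Hmox1 (36015) and the lowest for Srl, listed at 0, HS 1 was the highest for Cyp21a1 (46.5), HS 3 was the lowest for Slc4a1 (1930.2) and HS 4 for Slc5a1 (1095). All values are normalized counts.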

How the results depend on the processing

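With Sham 1 and Sham 6 as the only controls, 3151 genes were called (1309 higher, 1847 saturation, 1 opposing). With the name letter as a covariate these were 617 (206 higher, 411 lower, 514 saturation, 101 loss, 0 opposing, 2 synergy). In the R libraries alone limma called 0, 0 higher and 0 lower, with 0 in saturation, loss, opposing and synergy. The cause was not tested. Upper quartile scaling moved the median departure of all genes from 0.02 to 0.15 and the share of higher calls from 47% to 60.3%, with 1461 saturated rises and 2485 saturated falls; of the lists with values in the text, the direction of the median flipped for none, whereas the plotted medians of glycolysis (-0.00 to 0.13) and cell cycle (-0.11 to 0.02) flipped near 0, and with trimmed mean of M values that of endothelial genes (0.01 to -0.03). Pseudocounts of 0.5 and 8, no filter, a filter of 50, trimmed mean of M values, upper quartile, array weights, edgeR and DESeq2 gave 4755 to 5911 called genes.

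Leaving out each library gave 3989 to 5518 called genes (1800 to 2641 higher, 2189 to 2886 lower), with 3111 to 4138 in saturation, 695 to 1077 in loss, 20 to 37 in opposing and 163 to 280 in synergy; each lowest count was without RM-HS 3. For the named genes, 2634 of 2975 values kept their direction and call, 325 lost the call, 1 gained it and 15 turned direction. Lcn2, not called in any of them, turned to 0.033 with a pseudocount of 8, 0.0861 with upper quartile scaling, 0.86 with array weights and ranged from -1.04 to 0.88 with 1 library left out. Fxyd3 turned to -1.35 with the letter covariate and -1.30 in the R libraries. None of the 90 called named genes kept its call in every setting, since the R libraries called 0.

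No paired analysis was possible because the labels give no replicate numbers shared by the groups.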
